A study of Homo sapiens with 8 samples.

Results

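The mitochondrial ribosomal protein genes were taken from the array table as every gene with a row of exactly 1 gene symbol of the form MRPS or MRPL followed by a number and, in some, a letter from A to C. Of 22109 genes tested, 70 met this rule, 23 coding for proteins of the small subunit of the mitochondrial ribosome and 47 for proteins of the large subunit. MRPS30 and MRPS18A, in spite of their names, were counted with the large subunit, where their proteins sit. The symbols MRPL12, MRPL30, MRPL53, MRPS6, MRPS24 and MRPS28 occurred only in rows that also name another gene, and MRPL46 only in a row that repeats its own symbol. All of these were outside the rule, and MRPS36 was not analysed here. The question was how the levels of these 70 genes compared between untreated MDA-MB-231 cells and cells at a low and a high dose of a plant extract.

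MDA-MB-231 is an established human triple-negative breast cancer line grown from a pleural effusion. Total RNA of 8 samples was hybridised to arrays of the Affymetrix type Human Gene 2.1 ST, each sample on its own array: 3 untreated controls, 3 at the low dose and 2 at the high dose. By the sample titles and the treatment protocol the treated cells received an ethanol extract of wild yam root (Dioscorea villosa) at 15 µg/mL (low) or 30 µg/mL (high), doses described as sublethal, for 24 h. The source names and treatment fields disagree with this: there the low samples carry Boswellia serrata extract (128 µg/mL), and the high samples carry 3-O-acetyl-β-boswellic acid (46 µg/mL), so what the cells received is unsettled, and low and high are used here only as names of groups. The labels list the controls as having no treatment, and do not say whether they received the solvent. The labels do not say that replicates came from separate cultures, so the p-values measure only the spread between these samples, which may be technical.

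Mitochondrial ribosomes translate the few messages of the mitochondrial genome, all of which code for subunits of the respiratory chain and ATP synthase. Their RNA comes from mitochondrial DNA, but all of their proteins are encoded in the nucleus, made in the cytosol and imported. Some of these proteins have counterparts in bacterial ribosomes, and others are found only in mitochondria.

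At both doses most members had lower levels than in untreated cells, by amounts that for nearly all of them did not pass the test gene by gene. The median change over the 70 members was -0.333 at the low dose and -0.345 at the high dose on the log2 scale, beside medians of -0.04 and -0.12 over all 22109 genes tested. Over the 11055 genes at or above the median level of all genes, which include 68 of the members, the medians were -0.07 and -0.22. MRPL1 and MRPL35, both of the large subunit, were called lower at the low dose, but leaving out any single array ended both calls. No member passed the test at the high dose, none was called higher at either dose, and none changed 2-fold. As deposited, all 23 small-subunit members lay below the control mean at both doses. Of all genes, 57.4% did at the low and 67.4% at the high dose. Under alternative processing MRPS18B took the other sign in 1 of 20 settings at the low and 4 of 19 at the high dose. Signs were followed in this way for only part of the members. The RNA had been brought to equal concentration, so in these bulk samples fewer cells of a type and less RNA per cell cannot be told apart.

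Promoter sequences were available for 63 of the 70 members (RefSeq, GRCh38.p14, 250 bases before to 50 bases after the first listed start of each gene), and 5 short motifs were searched on both strands. The sequences below are examples from members described in the results, chosen to show 4 of the motifs; other members described also carry matches. The motif of the factor YY1, written here as AANATGGCG, was in 16 of the 63 windows (25.4%), against 3.37% of 27305 promoter windows and 7.53% of the 8641 windows of genes at or above the median level. In MRPL1, MRPL37, MRPL42 and MRPS9 it lay just after the annotated start, and the 30 bases around it read as follows, with the motif in capitals. MRPL1 is at chr4:77862836-77862865, MRPL37 at chr1:54200187-54200216, MRPL42 at chr12:93467512-93467541 and MRPS9 at chr2:105038080-105038109, all on the plus strand. 
MRPL1: cggagtgcccAACATGGCGgcggccgtaag
MRPL37: cctgcgcgcggcAACATGGCGgggtccagg
MRPL42: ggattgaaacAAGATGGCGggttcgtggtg
MRPS9: tcccacagctAACATGGCGgcgccctgtgt

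The 250 bases before the start of MRPL3 (chr3:131502972-131503221, minus strand), MRPS17 (chr7:55951627-55951876, plus strand) and MRPS33 (chr7:141014953-141015202, minus strand) show the other motifs in capitals: an ETS motif (CCGGAAGT) that begins 32 bases before the start of MRPL3, a CCAAT box 22 bases before the start of MRPS17, and an NRF1 motif (GCGC and TGCGC with 1 free base between them, matched here on the opposite strand) 155 bases before the start of MRPS33. 
MRPL3: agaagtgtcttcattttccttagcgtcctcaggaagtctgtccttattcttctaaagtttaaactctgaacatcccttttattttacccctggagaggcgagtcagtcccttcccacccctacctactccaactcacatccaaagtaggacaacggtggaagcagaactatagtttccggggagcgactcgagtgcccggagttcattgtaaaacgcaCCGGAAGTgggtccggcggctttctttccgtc
MRPS17: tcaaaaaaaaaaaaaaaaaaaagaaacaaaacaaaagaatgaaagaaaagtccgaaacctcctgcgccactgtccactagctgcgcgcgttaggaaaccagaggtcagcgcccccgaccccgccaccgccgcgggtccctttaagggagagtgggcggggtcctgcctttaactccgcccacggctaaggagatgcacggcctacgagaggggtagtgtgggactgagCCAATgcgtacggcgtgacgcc
MRPS33: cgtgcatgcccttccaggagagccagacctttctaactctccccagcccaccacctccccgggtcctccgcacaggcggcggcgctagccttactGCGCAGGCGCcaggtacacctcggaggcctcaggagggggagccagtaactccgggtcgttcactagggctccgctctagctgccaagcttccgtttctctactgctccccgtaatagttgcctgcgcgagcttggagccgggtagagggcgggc

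The ETS motif was in 10 of the 63 member windows (15.9%; 4.43% of all windows and 9.37% of those of genes at or above the median level). The NRF1 motif was in 7 (11.1%; 6.29% and 12.2%), the E-box CACGTG in 6 (9.52%; 7.43% and 10.4%) and CCAAT in 20 (31.7%; 35.7% and 36.8%). In all, 41 members held at least 1 of the 5 motifs, and no matches of different motifs overlapped. Members with and without a motif had medians on the same side of 0 at both doses: with the YY1 motif -0.29 at the low and -0.25 at the high dose, without it -0.37 and -0.39; with the NRF1 motif -0.47 and -0.51, without it -0.33 each. A match is a description of letters in this window and not a measurement of binding.

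The arrays were not level with each other. The 75th percentile of all genes lay between 4.54 and 4.94 (log2) and was low on control 3, low 3 and high 2. The dim limit used below, the median of all genes' mean levels, was 2.75, and 68 members were at or above it; MRPL23 and MRPL54 were below. All 4 markers of the line lay above that level, while 0 of 4 measured leukocyte and 1 of 3 measured endothelial markers did. Of 4 measured luminal markers, ESR1 and PGR lay below it and CDH1 and EPCAM above. The mean level of 8 proliferation genes was 7.34 to 7.89 in controls, 5.83 to 6.19 at the low dose and 6.83 to 7.13 at the high dose, so these genes moved with the low-dose group; their part in the members' values was not tested.

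**Figure D1:**
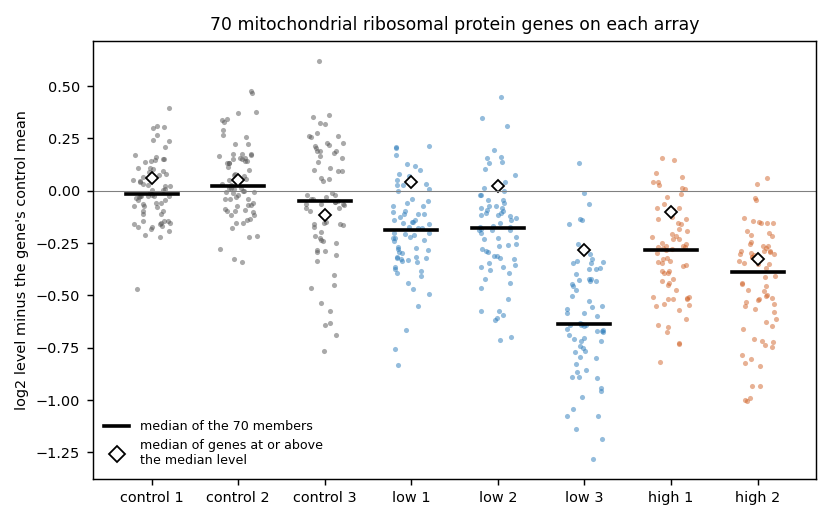
Log2 level of each of the 70 members on each of the 8 arrays minus the gene's mean over the 3 controls (points), with the median of the members (bar) and of the 11055 genes at or above the median level (diamond). The member median lies below the diamond on every treated array, and lowest, at -0.64, on low 3.

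Array by array, the median deviation of the members from their control means was -0.19, -0.18 and -0.64 on low 1, low 2 and low 3, and -0.28 and -0.39 on high 1 and high 2. On controls 1, 2 and 3 it was -0.02, 0.02 and -0.05. As group means of these medians the low dose gave -0.335 ± 0.262 (SD, n = 3) and the high dose -0.336 ± 0.0762 (SD, n = 2). The 11055 genes at or above the median level gave 0.04, 0.02 and -0.28 on the low arrays and -0.10 and -0.33 on the high arrays, so on low 3 and high 2 these genes were low as well. The members' own median lay below that of these genes on all 5 treated arrays. Of the 70 members, 38, 35 and 59 were below all 3 controls on low 1, low 2 and low 3, and 44 and 56 on high 1 and high 2. Low 3 was the lowest of the low arrays in 66 members, and without it the members' low-dose median was -0.18. For these counts on single arrays the matching shares of all genes were not computed, so the counts cannot be read as particular to the members. With each array's level equalised, the medians stayed below 0: -0.28, -0.32 and -0.27 at the low dose, and -0.16, -0.25 and -0.16 at the high dose, after quantile normalization and after subtraction of array medians or 75th percentiles. Subtracting 75th percentiles moved the median of all genes at the high dose from -0.12 to 0.07, a shift that a constant subtracted from each array gives to every gene alike. Relative to the median of all genes, the members' median was -0.29 at the low and -0.23 at the high dose as deposited, and -0.27 and -0.14 after quantile normalization. With dim genes left out it was -0.28 at the low and -0.13 at the high dose.

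In the comparison of the low dose with control, 2 of 70 members passed an adjusted p of 0.05 as lower and 0 as higher, while over all genes 1.81% were called lower and 1.19% higher. The members' share of calls is thus near that of all genes. That split of calls over all genes depended on scaling: 400 lower and 264 higher as deposited, 570 and 612 after quantile normalization, and 370 and 459 after 75th percentiles were subtracted. At an unadjusted p under 0.05, 20 members were lower and 0 higher (8.77% and 5.38% of all genes), and in 28 members every low array lay below every control (13% of all genes) and in 0 above (7.03%). Of the genes at or above the median level, 14.9% were lower at that p and 18.8% lower without overlap. In all, 65 members lay below 0, and 57.4% of all genes did. That count of members was 63 after quantile normalization, 62 after 75th percentiles were subtracted and 59 without low 3.

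MRPL1, the protein of the stalk that moves deacylated tRNA out of the ribosome, read 4.78, 4.87 and 5.21 on the controls and 4.20, 4.34 and 4.13 on the low arrays. The groups did not overlap, and the change was -0.73 ± 0.16 (SE; adjusted p = 0.0379 by limma), a 1.66-fold fall. MRPL35, a large-subunit protein with a bacterial counterpart, read 5.48, 5.56 and 5.47 on the controls, close together, and 5.01, 4.89 and 4.65 at the low dose. It fell by 0.65 ± 0.15 (adjusted p = 0.0455), or 1.57-fold, again with no overlap. Neither call was firm: leaving out any single array of the 8 ended both. With the replicate number as a block over all arrays 3 members were called lower, MRPL1, MRPL3 and MRPL35, and with that block over the control and low arrays alone 0 were.

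The members next in order missed the threshold. MRPL3, a core protein close to the site of peptide bond formation, read 7.84, 7.82 and 7.98 on controls and 7.41, 7.29 and 7.11 at the low dose (-0.61 ± 0.15, adjusted p = 0.0534). MRPL16, which lies near the same site, read 4.67, 4.82 and 4.98 against 3.99, 4.41 and 3.93 (-0.72 ± 0.18, adjusted p = 0.063). In both genes all low arrays were below all controls. MRPL42 had the lowest fitted change of all members at the low dose, -0.78 ± 0.24 (adjusted p = 0.14), but its controls were wide apart, at 5.27, 5.59 and 6.36, with control 3 highest, against 5.07, 5.03 and 4.78. In the small subunit MRPS33 read 3.91, 3.87 and 4.17 against 3.67, 3.41 and 2.70 (-0.72 ± 0.24, adjusted p = 0.158), with low 3 far below its partners. MRPS9 read 5.23, 5.31 and 5.66 against 5.07, 4.83 and 4.26 (-0.68 ± 0.23, adjusted p = 0.17), also without overlap. MRPS17 read 5.36, 5.38 and 5.44 against 5.02, 4.96 and 4.69 (-0.51 ± 0.15, adjusted p = 0.125). MRPL45, whose protein faces the inner membrane at the mouth of the exit tunnel, read 7.60, 7.52 and 7.85 against 7.32, 7.34 and 6.61 (-0.56 ± 0.21, adjusted p = 0.222).

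**Figure D2:**
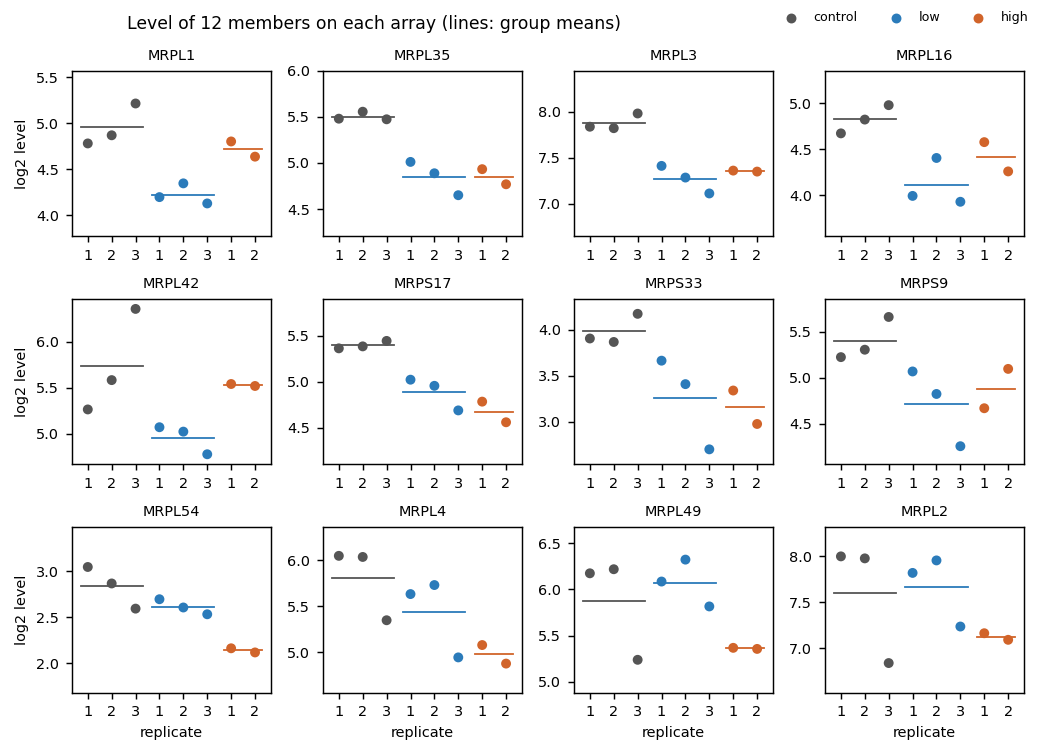
Log2 level of 12 members on each array (points; grey control, blue low dose, orange high dose), with group means as lines each panel spanning the same width of log2 values. In MRPL1, MRPL35, MRPL3 and MRPL16 all low arrays lie below all controls, and in MRPL49 and MRPL2 control 3 stands apart from controls 1 and 2.

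At the other end, 5 members had a low-dose change above 0, all with controls and low arrays overlapping. MRPL49, at 0.20 ± 0.25, was the highest: 6.18, 6.22 and 5.24 on the controls and 6.09, 6.32 and 5.82 on the low arrays, so that its mean hung on control 3. MRPL41 followed at 0.13 ± 0.14, with 3.73, 3.82 and 3.70 against 3.80, 3.95 and 3.88. MRPS18A gave 0.09 ± 0.19, MRPL52 0.09 ± 0.19 and MRPL2 0.07 ± 0.30. MRPL28, MRPL43 and MRPL21 lay just under 0, at -0.04, -0.04 and -0.06. For MRPL2, which lies at the catalytic centre, control 3 (6.84) was far below controls 1 and 2 (7.997 and 7.98), and the 95% interval of its change ran from -0.59 to 0.72.

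In the comparison of the high dose with control, 0 of 70 members passed the adjusted threshold in either direction, and over all genes 0.389% were called lower and 0.425% higher. By limma at an unadjusted p under 0.05, 17 members were lower and 0 higher (11.4% and 3.03% of all genes). In 42 members both high arrays lay below all controls (22.9% of all genes), and in 0 members above them (7.07%). Since 68 of the members were at or above the median level, the 11055 genes at or above it are the closer background: 18.5% of them were lower at an unadjusted p under 0.05, and in 29.95% both high arrays lay below all controls. In all, 69 members lay below 0, and 67.4% of all genes and 74.1% of those at or above the median level did. That count of members depended on array level. It was 57 after quantile normalization, 66 after array medians were subtracted and 59 after 75th percentiles were subtracted. Without high 2 it was 61. Counts over all genes were 86 lower and 94 higher as deposited, 133 and 326 after quantile normalization, 104 and 179 after array medians were subtracted and 61 and 230 after 75th percentiles were subtracted. Without control 3 the count of members called lower was 5 (MRPL4, MRPL37, MRPL49, MRPL54 and MRPS25), and without control 3, low 3 and high 2 together it was 7, where 3.35% and 4.53% of all genes were called lower. Array weights and a replicate block, which keep control 3, also moved this count, as given under the processing alternatives.

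The smallest p at the high dose was that of MRPS17, an RNA-binding protein of the small subunit. Its high arrays read 4.78 and 4.56, below every control, for a change of -0.73 ± 0.17 (adjusted p = 0.0914). A dim row that names both MRPS17 and ZNF713, outside the rule, gave -0.04 at the low and 0.05 at the high dose, without a test. MRPL54 read 3.05, 2.87 and 2.59 on controls and 2.16 and 2.12 at the high dose (-0.70 ± 0.18, adjusted p = 0.114); it is among the dimmest members. MRPL35, called at the low dose, read 4.93 and 4.77 at the high dose, with a change of the same size (-0.65 ± 0.17, adjusted p = 0.119). MRPL1, the other gene called at the low dose, read 4.80 and 4.63 at the high dose, overlapping with the controls (-0.24 ± 0.18, adjusted p = 0.597). MRPL4 had the lowest fitted value, -0.83 ± 0.28 (adjusted p = 0.205): 6.05, 6.04 and 5.35 on controls, and 5.08 and 4.88 at the high dose. Control 3 was already well below the other controls there. MRPS33 read 3.34 and 2.98 (-0.82 ± 0.26, adjusted p = 0.191), below all its controls. MRPS34, a small-subunit protein found only in mitochondria, read 6.50, 6.51 and 6.05 against 5.81 and 5.35 (-0.77 ± 0.28, adjusted p = 0.245). MRPL24, at the tunnel exit, gave -0.74 ± 0.26, MRPL37 gave -0.70 ± 0.26 and MRPS27, a protein with pentatricopeptide repeats, gave -0.66 ± 0.24, with adjusted p of 0.231, 0.253 and 0.25.

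The members nearest to or above 0 at the high dose were MRPL23 (0.05), MRPL41 (-0.001), MRPL44 (-0.02), MRPL19 (-0.07), MRPS30 (-0.10), MRPL45 (-0.11), MRPL28 (-0.11) and MRPL48 (-0.12), all in the large subunit. MRPL44, an RNase III-like protein, read 4.99, 5.00 and 5.48 on controls, 5.01, 4.86 and 4.49 on low arrays and 5.14 and 5.12 on high arrays. MRPS30 read 6.33, 6.44 and 6.65, then 6.24, 6.21 and 6.02, then 6.54 and 6.21. In MRPL44 the high arrays lay within the range of the controls, and in MRPS30 1 of them did.

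**Figure D3:**
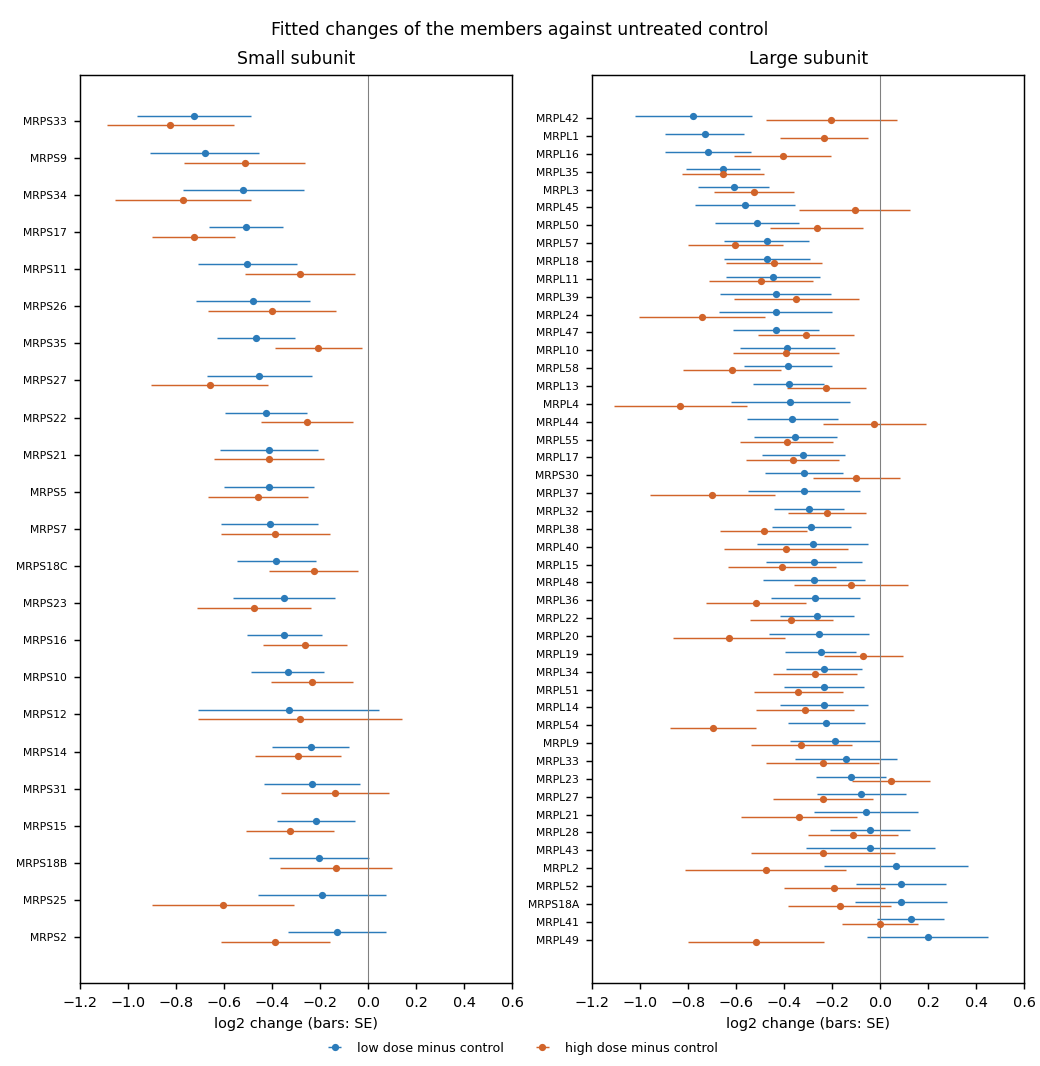
Fitted log2 change against untreated control of all 23 small-subunit (left) and 47 large-subunit members (right), low dose in blue and high dose in orange, with bars of 1 SE, ordered by the low-dose change. All small-subunit points lie below 0, and 5 large-subunit members lie above 0 at the low dose and 1 at the high dose.

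By subunit, the small-subunit members had medians of -0.41 at the low and -0.39 at the high dose, with 0 of 23 called at either. Their low-dose changes ran from -0.72 (MRPS33) to -0.13 (MRPS2), and in 11 at the low and 17 at the high dose all treated arrays lay below all controls, as in 13% and 22.9% of all genes (18.8% and 29.95% of those at or above the median level). The large-subunit members had medians of -0.29 and -0.34, with 42 and 46 of 47 below 0 (57.4% and 67.4% of all genes), and 17 and 25 below all controls without overlap, beside the same shares. The 41 members listed with a bacterial counterpart had medians of -0.34 and -0.36, and the 29 others -0.32 and -0.34. The list of others includes MRPS18A and MRPS18B, although their paralog MRPS18C is listed with a bacterial counterpart. These medians are descriptions, and the differences between the subgroups were not tested.

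Within the large subunit, the stalk that binds translation factors was represented by MRPL10, MRPL11 and MRPL54, with medians of -0.39 and -0.50. Its proteins MRPL12 and MRPL53 have rows that also name another gene and were outside the rule; these rows gave -0.32 and 0.002 at the low and -0.48 and -0.45 at the high dose, without a test. MRPL11 read 5.76, 5.75 and 5.31 on controls, 5.40, 5.21 and 4.86 on low arrays and 5.26 and 4.96 on high arrays, so that control 3 overlapped with the low group. The 6 proteins of the tunnel exit (MRPL17, MRPL22, MRPL23, MRPL24, MRPL45 and MRPL47) had medians of -0.38 and -0.34. The 5 measured proteins of the central protuberance, which faces the small subunit, had medians of -0.29 and -0.44; among them MRPL58, a peptidyl-tRNA hydrolase built into the ribosome, read 7.37, 7.42 and 7.30, then 7.10, 7.20 and 6.64, then 6.93 and 6.56. All 5 treated MRPL58 arrays lay below all its controls, with changes of -0.38 ± 0.18 (adjusted p = 0.384) and -0.62 ± 0.20 (adjusted p = 0.204).

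The 3 MRPS18 paralogs gave values that differed in sign at the low dose. MRPS18A gave 0.09 ± 0.19 at the low and -0.17 ± 0.21 at the high dose, MRPS18B -0.21 ± 0.21 and -0.13 ± 0.23, and MRPS18C -0.38 ± 0.17 and -0.23 ± 0.18, none of which passed the test. MRPS18C read 3.61, 3.49 and 3.49 on controls against 3.14, 3.41 and 2.89 at the low dose and 3.26 and 3.34 at the high dose, without overlap. MRPS18B was listed in 7 rows of identical values, which count as 1 measurement. MRPL33 had a second, dimmer row with a control mean of 1.93 that gave 0.32 and 0.57, where the row kept gave -0.14 and -0.24, so its probes disagree in sign.

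Between the doses, 0 of 70 members passed the threshold, and over all genes 1 was called higher (0.00452%) and 0 lower. The median of high minus low was -0.05 over the members and -0.07 over all genes. Below 0 lay 40 members (57.1%), 61.6% of all genes and 68.0% of those at or above the median level. It turned positive after quantile normalization (0.09) and after subtraction of array medians (0.04) or 75th percentiles (0.07), so it has no settled direction. By limma at an unadjusted p under 0.05, 2 members were lower (6.1% of all genes) and 1 higher (2.56%) at the high dose. In 7 members the high arrays lay below all low arrays (16.7% of all genes), and in 7 above them (8.77%). MRPL1 was the higher one: its high arrays, 4.80 and 4.63, lay above all 3 low arrays, by 0.50 ± 0.18 (adjusted p = 0.497). The lower ones were MRPL49, with 5.37 and 5.35 at the high dose (-0.72 ± 0.28, adjusted p = 0.53), and MRPL54 (-0.47 ± 0.18, adjusted p = 0.51). MRPL42 had the highest value, 0.57 ± 0.27, with high arrays at 5.54 and 5.52. For MRPL35 the difference was 0.00, with a 95% interval from -0.38 to 0.38.

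Control 3 differed from the other controls gene by gene. It was the lowest control in 36 members and the highest in 27, and its difference from the mean of controls 1 and 2 ran from -1.15 (MRPL2) to 0.93 (MRPL42). Controls 1 and 2 differed by a median of 0.10. The members low on control 3 tended to be lower at the high than at the low dose: high minus low had a median of -0.13 in the 36 members and 0.10 in the 27, and was below 0 in 28 and 8 of them. Over the 70 members Pearson's r between the differences was 0.71, and over the 11055 genes at or above the median level 0.60, given as a description, since the genes share the same 8 arrays. MRPL49 (-0.96), MRPL2 (-1.15) and MRPS25 (-1.03) were low on control 3 and also lower at the high dose than at the low dose. MRPL1 (0.39) and MRPL42 (0.93) were high on both measures. No array of controls enters high minus low, and what control 3 shares with the high arrays was not tested.

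**Figure D4:**
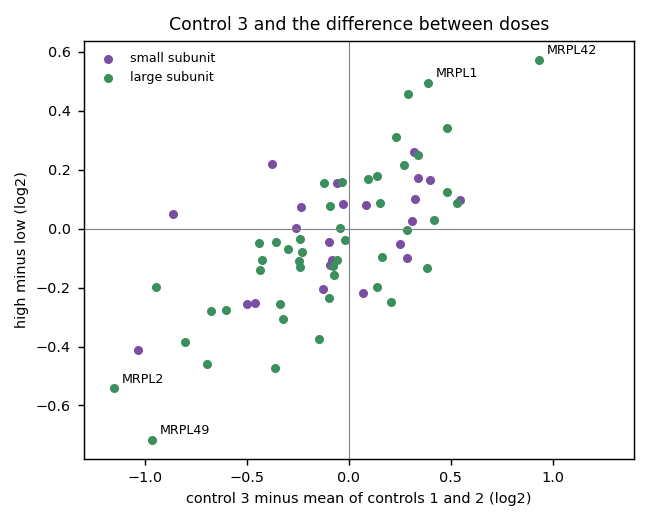
For each of the 70 members, control 3 minus the mean of controls 1 and 2 (horizontal, log2) against the fitted high minus low difference (vertical, log2), small subunit in purple and large subunit in green. MRPL2 and MRPL49 lie at the lower left and MRPL42 and MRPL1 at the upper right.

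Subunits of the mitochondrial ribosome that carry other names gave values in the same range. Of 7 symbols planned, 4 were found as such (DAP3, CHCHD1, PTCD3 and GADD45GIP1), 0 were called, and their medians were -0.42 and -0.44. ICT1 and MRP63, also planned, are older symbols of MRPL58 and MRPL57, which were measured and are counted among the 70 members. PTCD3 read 6.31, 6.33 and 6.58 on controls, 5.94, 5.88 and 5.52 on low arrays and 6.14 and 5.82 on high arrays (low dose -0.62 ± 0.17, adjusted p = 0.0931). Of 23 measured assembly factors of 25 planned, 1 was called, MTERF3, a regulator of mitochondrial transcription and ribosome assembly, which fell at the low dose from 5.43, 5.59 and 5.73 to 5.11, 4.81 and 4.42 (-0.80 ± 0.19, adjusted p = 0.0493). The list's medians were -0.24 and -0.41. Of 14 measured translation factors, the proteins that start, extend and end mitochondrial chains, 0 were called, with medians of -0.24 and -0.33. Of 18 genes of mitochondrial transcription and RNA processing 1 was called: PNPT1, an RNA exonuclease, fell at the low dose from 6.97, 6.99 and 7.29 to 6.47, 6.22 and 6.12 (-0.81 ± 0.16, adjusted p = 0.0208), and at the high dose read 6.25 and 6.31 (-0.80 ± 0.18, adjusted p = 0.0781). The list's medians were -0.26 and -0.27. Among 9 regulators of mitochondrial biogenesis 0 were called, with medians of -0.16 and -0.23. Beside the calls in these lists, 1.81% of all genes were called lower at the low dose and 0.389% at the high dose.

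The transcripts that these ribosomes translate did not follow that pattern in their values. Of 15 planned, 8 transcripts encoded by mitochondrial DNA were measured, 0 were called, and their medians were 0.03 at the low and -0.04 at the high dose. COX1, COX2, CYTB, ND1, ND2, ND3 and ND5 gave fitted values between -0.11 and 0.19 at both doses. ND6, encoded on the other strand of the mitochondrial genome, was the exception in value: 8.53, 8.64 and 8.67 on controls, 8.17, 8.30 and 8.14 on low arrays and 8.08 and 8.22 on high arrays, with no overlap (-0.41 ± 0.14, adjusted p = 0.187, and -0.46 ± 0.16, adjusted p = 0.22). These 8 transcripts lay near the top of the array's scale, between 8.08 and 11.79.

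For comparison, the 52 measured cytosolic ribosomal protein genes had medians of -0.18 and -0.28, with 45 and 49 below 0, and 1 called at each dose: RPS25 fell at the low dose by 0.76 ± 0.18 (adjusted p = 0.045), and the paralog RPL39L at the high dose by 1.42 ± 0.28 (adjusted p = 0.049). The 63 nuclear subunits of oxidative phosphorylation had medians of -0.21 and -0.37, with 59 and 61 below 0 and 0 called. Over all genes 57.4% and 67.4% lay below 0, and 1.81% and 0.389% were called lower. Genes at or above the median level had medians of -0.07 and -0.22. At the low dose the members' median, -0.333, was below those of these 3 lists, and at the high dose, at -0.345, it lay between those of the cytosolic ribosomal proteins and the oxidative phosphorylation subunits; these differences were not tested.

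**Figure D5:**
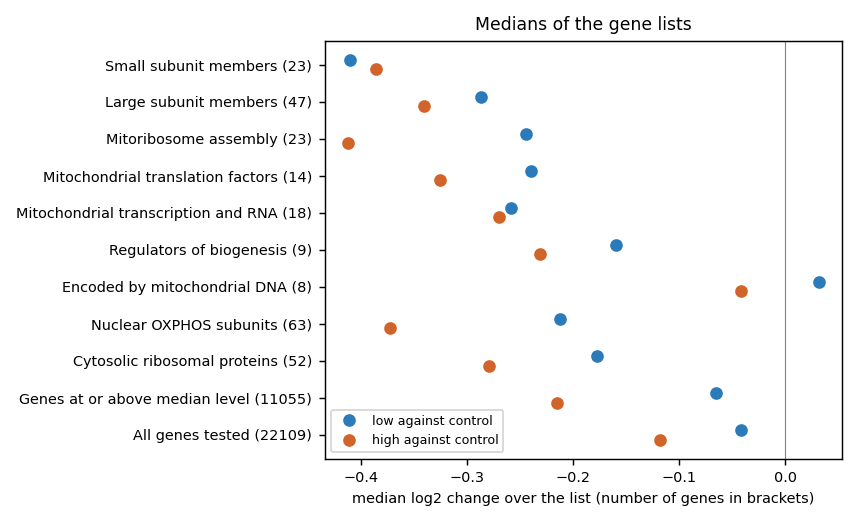
Median fitted log2 change of each gene list at the low (blue) and high dose (orange), with the number of genes in brackets. Of the lists plotted, the small-subunit and large-subunit members lie furthest below 0 at the low dose, and the transcripts of mitochondrial DNA lie near 0 at both.

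Some members share a promoter region with a neighbour that is read in the opposite direction. Among the 63 members with a promoter entry, 19 had such a partner with a start within 1000 bp, and 12 partners were measured. The partners had medians of -0.18 and -0.25, beside -0.31 and -0.30 for the 12 members next to them. At each dose 7 of the 12 partners lay below 0, beside 57.4% (low) and 67.4% (high) of all genes. At the low dose 2 partners were called lower and 0 higher (1.81% and 1.19% of all genes). At the high dose 0 were called (0.389% of all genes lower and 0.425% higher). SKA3, a protein of the kinetochore, starts 106 bp from MRPL57 and fell from 7.03, 6.99 and 7.56 to 5.78, 5.56 and 5.26 (-1.66, adjusted p = 0.00255). MRPL57 itself read 4.67, 4.96 and 4.58 on controls and 4.18, 4.55 and 4.06 on low arrays (-0.47 ± 0.18, adjusted p = 0.232). NCAPD2, a condensin subunit, starts 840 bp from MRPL51 and fell by 0.98 (adjusted p = 0.0174), where MRPL51 gave -0.23. Both partners are genes of cell division, whose levels moved with the low-dose group as given above.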

How the data were processed

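The deposited table holds log2 expression values of 53617 rows on 8 arrays, made with the Transcriptome Analysis Console per the submitters' processing notes; its version and the way values were summarized and normalized are, in the sources used here, not given, and the log base was taken from the range of the values. The table gives no background measure, so dim and absent genes look alike. Precision is limited by the number of arrays. Rows were named through the platform annotation: 23558 had 1 gene symbol, 2155 several and 27904 were unnamed here. Through Entrez identifiers 22271 of the single-symbol rows matched current RefSeq genes, which updated 3 symbols. The row with the highest mean was kept for the 618 genes with several rows, which left 22109 genes. Samples were grouped by title.

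All 8 arrays entered 1 limma fit (version 3.58.1, R 4.3.3) with a mean for each group (lmFit, contrasts, eBayes; 5 residual and 6 prior degrees of freedom), p-values were adjusted by the Benjamini-Hochberg method over all genes of each comparison, with calls made under 0.05. The script was tested on simulated data. The members and lists were chosen with earlier results of these data known. The members named are those called in any comparison, the 8 lowest and 8 highest fitted changes at each dose, members with several rows and the MRPS18 paralogs, MRPS30 and MRPS36; of other lists, the genes called and the transcripts of mitochondrial DNA. MRPL11, MRPL57, MRPL58, MRPS2 and MRPS25, DAP3 and its list, and the promoter neighbours were named after their values were seen.

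Replicate numbers come from the titles. Deviations from group means correlated at 0.103, 0.153 and 0.203 between the control and low arrays of the same number, all above a limit of 0.1. Control 1 correlated more closely with low 2 (0.122) than with low 1, so whether these numbers pair is not settled. The main fit took the arrays as unpaired. The high group has 2 arrays and was not taken as paired (0.094 and -0.0494 with the controls). Alternatives were 18 planned settings (scaling, filter, row choice, weights, prior, samples in the fit, replicate block, arrays left out) and 2 added after seeing the data. Promoter windows are those of RefSeq, GRCh38.p14; windows of MRPL2, MRPL10, MRPL13, MRPL15, MRPL21, MRPL23 and MRPL35 were not used here.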

Additional observations from a re-analysis of the deposited data

How the results depend on the processing

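For the list medians, direction held more firmly than calls. No median against control changed sign under any alternative run, and 0 members were called higher under any of them. Single members did change side. At the high dose 69 members lay below 0 as deposited and 57 after quantile normalization. At the low dose the count was 65 as deposited, 59 without low 3 and 69 without control 3. At the low dose the count of 2 members called lower was 0 after subtraction of 75th percentiles, 0 with a trended and robust prior, 0 when only the control and low groups were fitted, 0 with the replicate block over the control and low arrays alone, 1 without control 3, low 3 and high 2 together (MRPL35) and 5 with array weights (MRPL1, MRPL3, MRPL16, MRPL35 and MRPS17), where the share of all genes called lower also rose, from 1.81% to 4.95%. It was 0 to 0 with any single array left out. With the replicate block over all arrays it was 3, and after quantile normalization 2, which were MRPL16 and MRPL35. MRPL1 lost its call in 14 of 20 alternatives (adjusted p from 0.00937 to 0.132) and MRPL35 in 12 of 20 (0.00582 to 0.144).

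At the high dose the count of 0 called lower was 5 with array weights, 8 with the replicate block, 7 without control 3, low 3 and high 2 together, and 0 to 5 with single arrays left out, with 5 only without control 3. Over all genes the share called lower rose as well, from 0.389% to 3.48% with array weights, 4.66% with the block, 4.53% without the 3 arrays and 3.35% without control 3. The 8 under the block were MRPL2, MRPL4, MRPL24, MRPL35, MRPL37, MRPL54, MRPS17 and MRPS34; with 2 high arrays the numbers were not shown to pair. The median at the high dose, -0.345, was -0.159 after quantile normalization and -0.155 after subtraction of 75th percentiles. With single arrays left out the medians ran from -0.406 to -0.184 (low) and from -0.39 to -0.282 (high), lowest in size without low 3 and without high 2. The median of high minus low ran from -0.187 to 0.0346. The cause of these changes was not tested. The few arrays limit what can be called.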

Other observations

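MRPL46, a large-subunit gene outside the rule because its row repeats its own symbol, gave -0.50 ± 0.18 at the low dose (adjusted p = 0.209) and -0.65 ± 0.20 at the high dose (adjusted p = 0.17) by limma when such rows were included, an alternative chosen after seeing the data. Its values lie within the range of the 70 members at both doses.

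The spread between arrays of a group differed from member to member. The median SD was 0.19 in the controls, 0.25 at the low dose and 0.11 at the high dose, where 2 arrays give it. The widest control SD was that of MRPL2, at 0.66, and the narrowest of any member was 0.03. High 2 lay below high 1 in 54 members, by a median of -0.10 over all 70. The genes at or above the median level were also lower on high 2. Their median deviation from the control means was -0.10 on high 1 and -0.33 on high 2. The matching share of all genes was not computed, so the count cannot be read as particular to the members.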
